A study of Mus musculus with 8 samples.

Results

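The extracellular metalloproteinases and their inhibitors were followed in mouse hearts with autoimmune myocarditis: the matrix metalloproteinases (Mmp genes), the disintegrin metalloproteinases (Adam and Adamts genes) and the tissue inhibitors of metalloproteinases (Timp genes). Each gene was included by its symbol alone, as every gene with expression values named Mmp, Adam, Adamts or Timp plus a number and at most 1 letter. Earlier results of these data were known when these families were chosen. The deposited table listed 80 such genes, and 55 of them had values, of 18835 genes with values in all. These were 4 Timp genes of 4 listed, 18 Mmp genes of 23, 16 Adam genes of 34 and 17 Adamts genes of 19. The 25 listed without values included Mmp7, Mmp1a, Mmp1b, Adam28 and Adamts13, and nothing is said of them.

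Male BALB/cAJcl mice, 10 weeks old, had been immunized with cardiac myosin, which gives an autoimmune inflammation of the heart muscle. One group was then injected intraperitoneally with VEGF-C C156S at 1 µg per day from day 7 to day 10, and the other with PBS, the buffer control. VEGF-C is the growth factor of lymphatic vessels, and its C156S form is a mutant that acts through the receptor Flt4 and not through Kdr. Hearts were taken at week 3 after disease induction, and RNA from heart tissue was sequenced in 8 libraries, 4 VEGF-C and 4 PBS. All animals had been immunized, so no library shows the healthy heart. No label says that each library came from a separate animal, and p-values therefore measure only the spread between these libraries.

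MMPs are secreted or membrane-bound zinc proteases that are made as inactive precursors and cut collagens, gelatin, elastin and proteoglycans. ADAMs sit in the cell membrane and mostly release the outer parts of other membrane proteins, a process called shedding. ADAMTS proteases are secreted, bind the matrix, and cut proteoglycans such as versican and aggrecan or trim procollagen. TIMPs bind the active site of these enzymes and block it. In the inflamed heart, infiltrating neutrophils and macrophages bring some of these proteases, while fibroblasts, endothelium and cardiomyocytes make others.

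The libraries held 53679737 to 65230480 assigned reads in the VEGF-C group and 61713842 to 76803952 in the PBS group. Each of 8 cardiomyocyte marker genes had at least 44675 normalized counts in every library, and 6 lymphatic endothelial markers summed to 15338 to 26804 normalized counts in VEGF-C libraries and 13636 to 20781 in PBS libraries, so the values are those of heart tissue and not of sorted lymphatic endothelium, of which the series' title speaks. PBS replicate 1 stood apart among the proteases: it was the lowest of the 8 libraries for 18 of the 55 genes (32.7%, against 14.7% of all genes) and the highest for 8 (14.5%, against 15.4% of all genes). The genes at their lowest there included Timp2, Timp3, Mmp2, Mmp14 and Mmp15, and those at their highest included Timp1, Mmp9, Mmp12, Mmp25 and Adamts4. The summed fibroblast markers were also lowest in that library, at 603860.4 normalized counts, against 839101 to 897626 in the other PBS libraries. By group means, the collagen genes Col3a1, Col1a2 and Col1a1 made up most of this sum in both groups. In bulk tissue, fewer cells of a type and less RNA per cell cannot be told apart.

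Of the 55 genes, 12 differed between the groups at an adjusted p under 0.05, in the limma fit over all genes: 5 were higher in VEGF-C hearts (Timp4, Timp3, Mmp15, Adamts9 and Mmp28) and 7 were lower (Adam33, Adam4, Adamts10, Mmp9, Adamts14, Mmp25 and Adam12). That was 21.8% of the 55 genes, against 15.7% of all genes tested. The higher ones were 9.09% of the 55, against 7.05% of all genes, and the lower ones 12.7%, against 8.61%. The 2 groups did not overlap for 14 of the 55 genes (25.5%, against 23.0% of all genes), 5 with VEGF-C higher (11.5% of all genes) and 9 with VEGF-C lower (11.6% of all genes). The share without overlap and with VEGF-C higher lay a little below that of all genes, and the other shares lay near or above theirs. The differences between these shares were not tested. The median log2 difference, VEGF-C minus PBS, was -0.12 over the 55 genes and 0.0013 over all genes, and 36 of the 55 were negative (65.5%, against 49.8% of all genes). When libraries were scaled by their total reads in place of the authors' factors, the median of all genes moved by -0.19 and the split of calls became 2 higher and 12 lower. Upper-quartile scaling gave 3 higher and 7 lower.

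**Figure D1:**
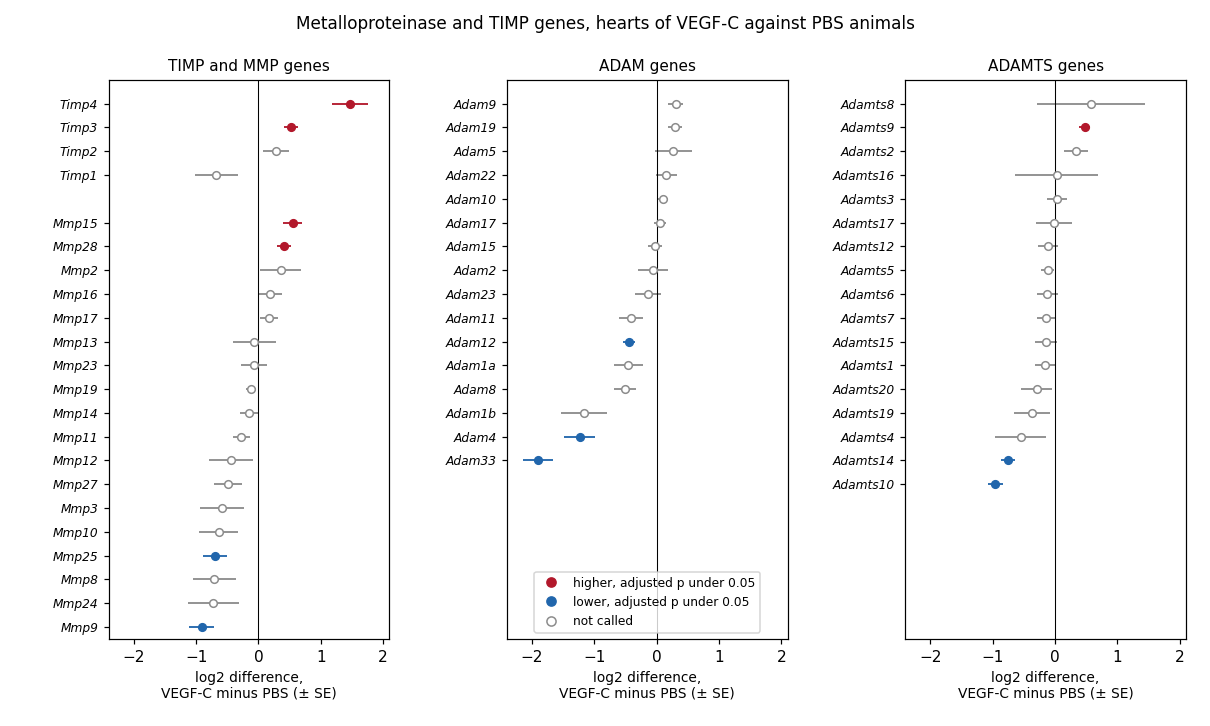
Log2 difference (VEGF-C minus PBS, horizontal axis) with its standard error for the 55 genes, Timp and Mmp genes left, Adam genes middle, Adamts genes right. Filled points passed an adjusted p of 0.05 (red higher, blue lower in VEGF-C hearts), open points did not. Timp4 at 1.47 and Adam33 at -1.91 lie at the ends.

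Among the inhibitors Timp4 and Timp3 rose, while Timp2 and Timp1 did not pass the test, and the differences of these last had opposite signs. Whether the inhibitors differed from each other was not tested. Timp4, the family member with its main expression in the heart, had 1255, 3199.5, 1586 and 1675 normalized counts in the VEGF-C libraries, against 787, 509, 932 and 482 in the PBS libraries. Every VEGF-C library lay above every PBS library, and VEGF-C replicate 2 was the highest by far. The log2 difference of Timp4 was 1.47 ± 0.29 (SE, n = 4 each), with an adjusted p of 0.00963. Leaving out VEGF-C replicate 2, as any other library, kept the call. Timp4 shares 90 of its 5894 exon bases with Syn2, a synapsin gene on the opposite strand.

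Timp3, which binds to the matrix and also blocks ADAM17 and several ADAMTS enzymes, had 12089, 14439, 15400.5 and 17219.6 normalized counts in the VEGF-C libraries, against 8959, 11168, 10297 and 10645 in the PBS libraries. The groups did not overlap, although the lowest VEGF-C library lay close to the highest PBS library. Timp3 thus differed by 0.52 ± 0.11 on the log2 scale (adjusted p = 0.0144). Scaling by total reads ended the call (adjusted p = 0.0717). In the GENCODE M21 annotation, 1733 of the 8144 exon bases of Timp3 also lie in Syn3 on the opposite strand, and no source used here gives the strand setting of the counting. Syn3, a synapsin gene, averaged 38.1 normalized counts in VEGF-C hearts and 54.2 in PBS hearts, and its difference of -0.47 did not pass the test (adjusted p = 0.22).

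Timp2, which with MMP14 helps to activate MMP2, had 27334, 25916, 28382 and 31425 normalized counts in the VEGF-C libraries, against 13722, 29774, 26099 and 27416 in the PBS libraries. PBS replicate 1 had the lowest level by a wide margin, and the other PBS libraries lay inside the VEGF-C range or beside it. The groups' log2 means of Timp2 differed by 0.28 ± 0.21 (adjusted p = 0.393), and without PBS replicate 1 the difference was 0.02 (adjusted p = 0.892). Timp1, the inhibitor that inflammation induces, had 8132, 7854, 4549 and 5110.3 normalized counts in the VEGF-C libraries, against 21089.9, 6262, 9913 and 7356 in the PBS libraries. Here PBS replicate 1 was the highest of all, and the groups overlapped. For Timp1 the log2 difference came to -0.67 ± 0.34 (SE), with an adjusted p of 0.203, and without PBS replicate 1 it was -0.31 (adjusted p = 0.36).

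The promoters of the inhibitors are shown because the log2 differences of the 4 genes did not all have the same sign. That of Mmp3 is shown as an example from the protease cluster described further on. It does not stand for every gene there, since the Mmp8 promoter had neither a TATA box match nor an AP-1 match. They are the 250 bases before each gene's start, 5′ to 3′ on the gene's strand, from RefSeq (GRCm38.p6). The files' own build is GRCm39, and no coordinates of it are used. Capitals mark matches on either strand. The TATA box was searched as TATAAA. The letters of the AP-1 element, bound by Fos and Jun proteins, were TGANTCA. A GC box, the Sp1 motif, was GGGCGG. The element of ETS factors was taken as AGGAAG. No match overlapped another.
Timp3 (chr10:86300162-86300411, plus strand) is the first.
Timp3: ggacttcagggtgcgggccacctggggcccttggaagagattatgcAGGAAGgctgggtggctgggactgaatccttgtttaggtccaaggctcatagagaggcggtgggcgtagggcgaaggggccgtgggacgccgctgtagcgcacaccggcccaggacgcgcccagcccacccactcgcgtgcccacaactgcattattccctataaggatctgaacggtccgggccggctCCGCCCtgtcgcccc
Timp4 (chr6:115252206-115252455, minus strand) follows.
Timp4: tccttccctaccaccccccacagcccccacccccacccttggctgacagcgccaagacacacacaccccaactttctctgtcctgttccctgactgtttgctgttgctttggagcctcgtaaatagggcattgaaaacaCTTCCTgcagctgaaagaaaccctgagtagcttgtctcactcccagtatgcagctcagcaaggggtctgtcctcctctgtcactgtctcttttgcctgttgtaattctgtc
Timp1 (chrX:20869916-20870165, plus strand) and Timp2 (chr11:118355412-118355661, minus strand) did not pass the test.
Timp1: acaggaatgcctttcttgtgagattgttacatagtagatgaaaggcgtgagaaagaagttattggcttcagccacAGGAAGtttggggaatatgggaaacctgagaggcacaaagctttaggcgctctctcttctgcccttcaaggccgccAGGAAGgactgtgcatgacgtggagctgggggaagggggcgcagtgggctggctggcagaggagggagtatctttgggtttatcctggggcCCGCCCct
Timp2: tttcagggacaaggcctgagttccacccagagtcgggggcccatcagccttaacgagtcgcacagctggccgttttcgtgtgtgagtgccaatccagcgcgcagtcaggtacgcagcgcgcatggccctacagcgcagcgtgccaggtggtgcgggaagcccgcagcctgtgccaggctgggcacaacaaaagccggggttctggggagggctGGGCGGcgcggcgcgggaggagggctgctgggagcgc
Mmp3 lies at chr9:7445572-7445821, plus strand.
Mmp3: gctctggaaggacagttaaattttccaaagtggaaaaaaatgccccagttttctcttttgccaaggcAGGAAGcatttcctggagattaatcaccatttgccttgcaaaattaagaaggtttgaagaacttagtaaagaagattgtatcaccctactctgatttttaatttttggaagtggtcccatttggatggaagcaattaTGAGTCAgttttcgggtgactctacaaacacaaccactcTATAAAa
The Timp2 and Timp3 windows were rich in G and C, at 68.0% and 65.6%, the Timp1 and Timp4 windows less so, at 54.4% and 53.6%, and that of Mmp3 had 37.6%. A GC box was found for Timp1, Timp2 and Timp3, a motif that 32.7% of the 32851 promoters searched hold. An ETS element was found for Timp1, Timp3, Timp4 and Mmp3 (29.5% of the promoters searched). Both genes that rose had an ETS match, but so had Timp1. Only Mmp3 among these 5 had a TATA box match (12.4% of the promoters searched) and an AP-1 element (6.75%). Its TATAAA began at -7 from the gene's start. The promoters searched included 38 promoters of 34 of the 55 genes, and among them the AP-1 element was found for Mmp3, Mmp10, Mmp12, Mmp13 and Adam19. A match is a run of letters, not a measured binding site.

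Mmp9 and Mmp25, both known as proteases of neutrophils, fell. Mmp9, gelatinase B, had 895, 1108, 577 and 557 normalized counts in the VEGF-C libraries, against 1542, 1396, 1417 and 1323 in the PBS libraries. The PBS libraries lay close together, and the VEGF-C libraries spread over a wider range below them. VEGF-C minus PBS, Mmp9 differed by -0.91 ± 0.20 (log2, adjusted p = 0.0149). Mmp25, a membrane-anchored MMP also called leukolysin, had 182, 221, 242 and 214 normalized counts in the VEGF-C libraries, against 519, 309, 333 and 274 in the PBS libraries. The ranges did not overlap, and PBS replicate 1 was the highest. The log2 difference of Mmp25 was -0.69 ± 0.19 (SE, n = 4 each), with an adjusted p of 0.0378, but the call was lost when any VEGF-C library, PBS replicate 2 or PBS replicate 3 was left out (adjusted p up to 0.0942).

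Other proteases of leukocytes had negative differences that did not pass the test. Mmp8, the neutrophil collagenase, had 208, 462, 282 and 195 normalized counts in the VEGF-C libraries, against 279.8, 542, 765 and 331 in the PBS libraries. The groups overlapped, and the log2 difference was -0.71 ± 0.34 (adjusted p = 0.185), or -0.45 without PBS replicate 3 (adjusted p = 0.398). Adam8, a leukocyte sheddase, had 789.9, 635, 797 and 853 normalized counts in the VEGF-C libraries, against 1186, 866, 1520.3 and 905 in the PBS libraries. Its groups did not overlap, and its log2 difference was -0.51 ± 0.17 (adjusted p = 0.0728). In the authors' deposited table the adjusted p of Adam8 was 0.0195. That table's adjusted p was under 0.05 for 13 of the 55 genes, the 12 named above and Adam8, and for 21.7% of all genes with such a value. Adamts8, among the 55, has no adjusted p there. Mmp12, macrophage elastase, had 545, 517, 670.0 and 813 normalized counts in the VEGF-C libraries, against 1786, 526, 1067 and 518 in the PBS libraries. Its difference of -0.44 ± 0.36 (adjusted p = 0.426) became -0.08 without PBS replicate 1 (adjusted p = 0.86), which alone held most of it.

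Neutrophil markers had differences of the same sign as these proteases. All 9 of them were negative, 1 passed the test (Csf3r, the G-CSF receptor, -0.77 ± 0.21, adjusted p = 0.0316), and their summed level was 12106 to 42359 normalized counts in VEGF-C libraries and 16093 to 52393 in PBS libraries. Of 10 macrophage and monocyte markers 8 were negative and 1 passed (Ly6c2, -0.39 ± 0.11, adjusted p = 0.0409), with sums of 179048 to 243027 normalized counts in VEGF-C libraries and 176973 to 274661 in PBS libraries. By group means, Lyz2 alone made up most of the macrophage and monocyte sum in both groups. No marker of either list was at 0 in any library. Within the PBS group, PBS replicate 1 had the lowest neutrophil sum, at 16093, against 34791 to 52393 in the other PBS libraries. The proteases differed there: Mmp9 and Mmp25 were at their highest of all 8 libraries, but Mmp8 was at its lowest of the PBS group, at 279.8. Within each group, Mmp8 ranked the libraries in the same order as the neutrophil sum. Adam8 was highest in PBS replicate 3, at 1520, where the neutrophil sum was highest, and next in PBS replicate 1, at 1186. Of the B cell markers, all 6 were lower without overlap, 4 passed the test, their differences ran down to -2.66, and their sums were 706 to 1847 normalized counts in VEGF-C libraries and 2688 to 4542 in PBS libraries. All 5 mast cell markers were negative and none passed, with sums of 1644 to 1969 normalized counts in VEGF-C libraries and 1368 to 3847 in PBS libraries. All 5 nerve and Schwann cell markers were negative, 3 without overlap, and 2 passed, with sums of 2237 to 2615 normalized counts in VEGF-C libraries and 3009.9 to 3209.6 in PBS libraries. T cell markers had 3 of 6 negative and none past the test, with sums of 2356 to 3179 normalized counts in VEGF-C libraries and 2315 to 3408 in PBS libraries. Over all genes, 49.8% were negative, 8.61% were called lower and 11.6% were lower without overlap. The single passing markers of neutrophils and of macrophages and monocytes were 11.1% and 10.0% of their lists, near the share of all genes called lower. The part of any of these cells in the differences of the proteases was not tested.

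Mmp15 and Mmp28 rose, both by less than the change of Timp4. Mmp15, a membrane-type MMP also called MT2-MMP, had 11186, 8262, 9504 and 9114 normalized counts in the VEGF-C libraries, against 5078, 7889, 5492 and 7969.7 in the PBS libraries. The groups did not overlap, but the lowest VEGF-C library was only just above the highest PBS libraries. Mmp15 thus differed by 0.55 ± 0.16 on the log2 scale (adjusted p = 0.0418). Mmp28, the secreted protease epilysin, had 383, 355, 393 and 341 normalized counts in the VEGF-C libraries, against 272, 300.3, 286 and 247 in the PBS libraries. Its libraries were tight within each group and did not overlap between them. The groups' log2 means of Mmp28 differed by 0.41 ± 0.11 (adjusted p = 0.0361). Both calls were fragile: that of Mmp15 was lost without VEGF-C replicate 1, 3 or 4 or PBS replicate 1 or 3 (adjusted p up to 0.105), that of Mmp28 without any library but PBS replicate 2 (up to 0.0984), and both under upper-quartile scaling or scaling by total reads. Of the 3874 exon bases of Mmp28, 466 also lie in 1700020L24Rik on the opposite strand, which averaged 47.0 normalized counts in VEGF-C hearts and 57.4 in PBS hearts.

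**Figure D2:**
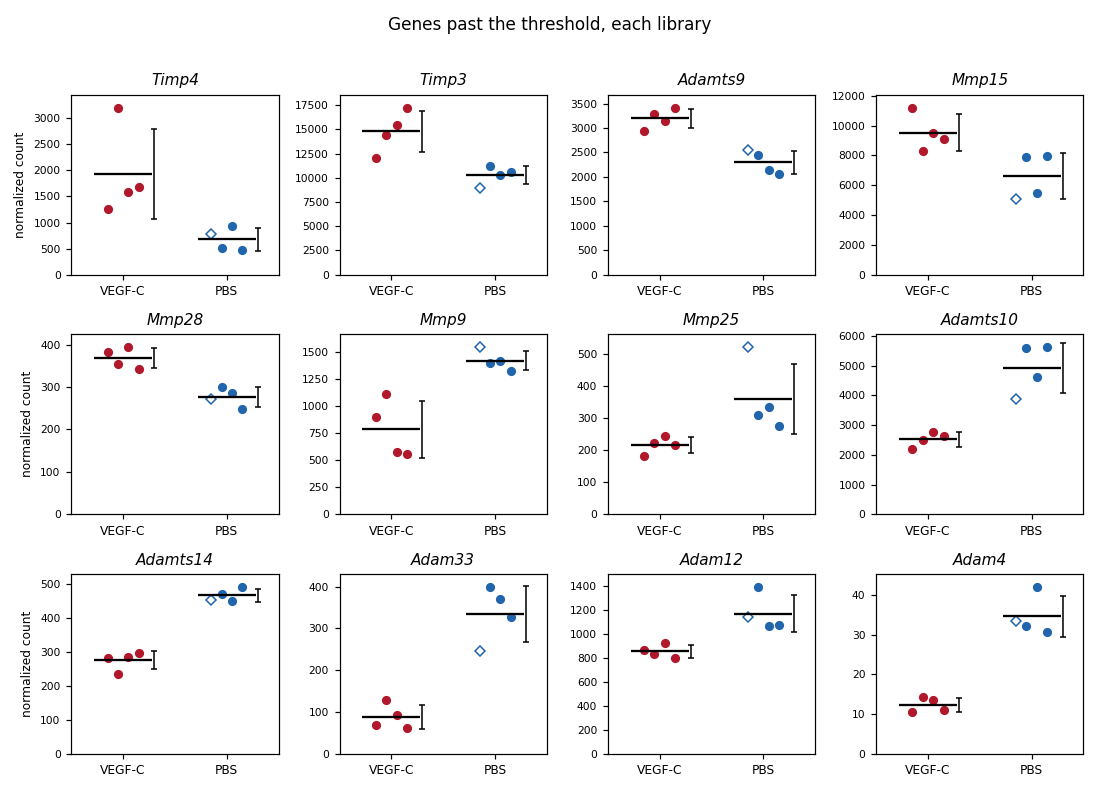
Normalized counts of each library (vertical axis) for the 12 genes that passed the test, VEGF-C libraries left, PBS libraries right. Horizontal lines are group means, bars the SD, and the open diamond is PBS replicate 1. In none of the 12 panels do the groups overlap.

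Mmp2 and its activator Mmp14, both made by fibroblasts, did not pass the test. Mmp2, gelatinase A, had 12036, 17048, 14901 and 18968 normalized counts in the VEGF-C libraries, against 5349, 16334, 13692 and 18096 in the PBS libraries. PBS replicate 1 was far below all others, which overlapped. For Mmp2 the log2 difference came to 0.36 ± 0.33 (SE), with an adjusted p of 0.493, and without PBS replicate 1 it was -0.04 (adjusted p = 0.894), so the sign rested on that library. Mmp14, or MT1-MMP, the membrane activator of MMP2, had 7411, 7442, 7949 and 9067 normalized counts in the VEGF-C libraries, against 6195, 10849, 9482 and 9338 in the PBS libraries. Here PBS replicate 1 lay below all VEGF-C libraries and the other PBS libraries lay above them. VEGF-C minus PBS, Mmp14 differed by -0.15 ± 0.15 (log2, adjusted p = 0.55). It was -0.31 without PBS replicate 1 (adjusted p = 0.0498), just past the threshold, and -0.04 without PBS replicate 2 (adjusted p = 0.877). Fibroblast markers, whose cells make much of the heart's MMP2, MMP14 and TIMPs, summed to 854486 to 1081010.3 normalized counts in VEGF-C libraries and 603860.4 to 897626 in PBS libraries. Of them 6 of 8 were positive and 1 passed the test (Col1a1, 0.69 ± 0.14, adjusted p = 0.00926), or 12.5%, against 15.7% of all genes called. None of these markers was at 0, and their part in the levels of Mmp2, Mmp14, Timp2 and Timp3 was not tested.

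A block of Mmp genes on mouse chromosome 9 had 6 members with values (Mmp3, Mmp8, Mmp10, Mmp12, Mmp13 and Mmp27), and all 6 log2 differences were negative, against 49.8% of all genes, with a median of -0.54. All 6 were also negative under each other scaling tried, but that of Mmp13 was near 0. In the authors' deposited table its log2 fold change was 0.0071, and with 1 library left out in turn its difference was -0.35 to 0.20. None of the 6 passed the test, so this is a description. Mmp3, stromelysin-1, which cuts many matrix proteins and activates other proMMPs, had 3985, 3687, 1262 and 4657 normalized counts in the VEGF-C libraries, against 4997, 3449, 4245 and 5983 in the PBS libraries. VEGF-C replicate 3 was the lowest, and the other VEGF-C libraries lay within the PBS range or beside it. The log2 difference of Mmp3 was -0.58 ± 0.36 (SE, n = 4 each), with an adjusted p of 0.284, and it was -0.16 without VEGF-C replicate 3 (adjusted p = 0.583). Mmp10, stromelysin-2, averaged 43.1 ± 15.9 normalized counts in VEGF-C hearts and 66.7 ± 16.3 in PBS hearts, a difference of -0.63 ± 0.31 (adjusted p = 0.19). Mmp13, a collagenase, averaged 72.1 ± 35.7 normalized counts in VEGF-C hearts and 71.9 ± 20.7 in PBS hearts (SD, n = 4 each), with a difference of -0.07 ± 0.34 (adjusted p = 0.914). Mmp27 was at 63.0 ± 10.3 normalized counts in VEGF-C hearts and 91.6 ± 23.3 in PBS hearts and differed by -0.49 ± 0.23 (adjusted p = 0.164).

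The remaining Mmp genes stayed short of the threshold. Mmp11, or stromelysin-3, averaged 916 ± 68.3 normalized counts in VEGF-C hearts and 1123 ± 203 in PBS hearts, with a difference of -0.28 ± 0.13 (adjusted p = 0.185). Without PBS replicate 1 its difference was -0.42 and passed (adjusted p = 0.0182), and over all libraries left out in turn it was -0.42 to -0.20. Mmp24, a membrane-type MMP of nervous tissue, had the most negative difference of the Mmp genes that did not pass, -0.73 ± 0.41 (adjusted p = 0.249), at 33.0 ± 14.2 normalized counts in VEGF-C hearts and 57.0 ± 25.6 in PBS hearts. Mmp16, Mmp17, Mmp19 and Mmp23 had differences of 0.19 ± 0.20, 0.17 ± 0.15, -0.12 ± 0.09 and -0.07 ± 0.20.

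**Figure D3:**
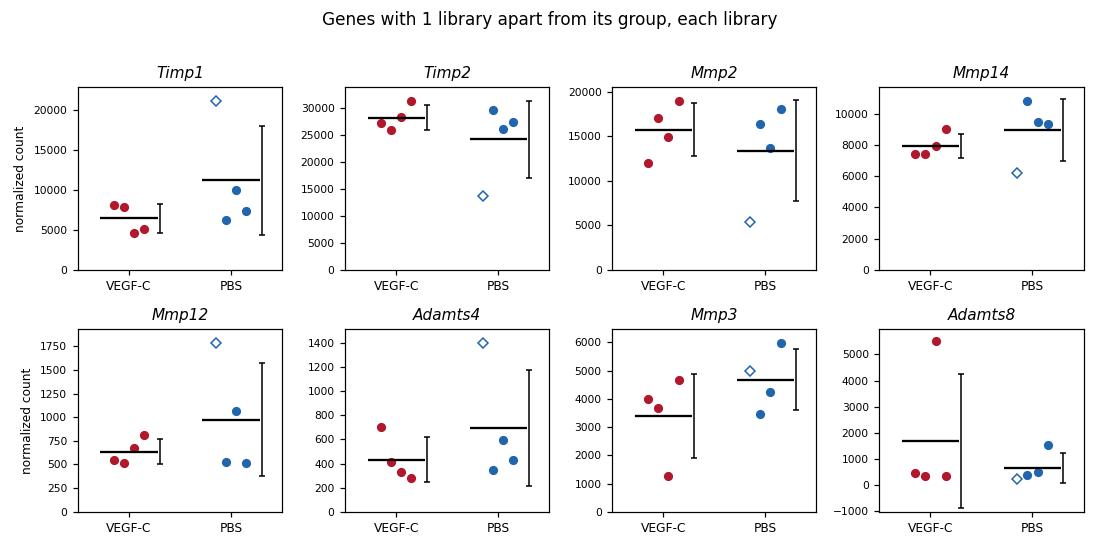
Normalized counts of each library (vertical axis) for 8 genes in which single libraries lay far from their group, VEGF-C left, PBS right, with group means (lines), SD (bars) and PBS replicate 1 as an open diamond. PBS replicate 1 is the highest library for Timp1, Mmp12 and Adamts4 and the lowest for Timp2, Mmp2, Mmp14 and Adamts8.

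Among the Adam genes 3 of 16 passed the test (18.8%, against 15.7% of all genes). All 3 were lower in VEGF-C hearts, as were 8.61% of all genes, and none was called higher. Adam33, in humans an asthma-associated gene of smooth muscle and fibroblasts, had the largest difference of the 55 genes. It had 70.0, 129, 91.9 and 61.9 normalized counts in the VEGF-C libraries, against 245, 399, 369.6 and 327 in the PBS libraries. The highest VEGF-C library was well below the lowest PBS library. Adam33 thus differed by -1.91 ± 0.24 on the log2 scale (adjusted p = 0.00111), where the scale is that of the deposited values, with 4 added to each count. Smooth muscle and pericyte markers summed to 74559 to 84676 normalized counts in VEGF-C libraries and 46593 to 92608 in PBS libraries, and 0 of 6 passed the test, with 3 of 6 negative.

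Adam12, or meltrin alpha, a protease of regenerating muscle and activated fibroblasts, had 863, 831, 928 and 802 normalized counts in the VEGF-C libraries, against 1144, 1393, 1068 and 1079 in the PBS libraries. The groups did not overlap. The groups' log2 means of Adam12 differed by -0.44 ± 0.10 (adjusted p = 0.0181). Adam4, a gene known from the mouse testis, was low throughout, with 10.6, 14.3, 13.4 and 11.1 normalized counts in the VEGF-C libraries, against 33.4, 32.3, 42.0 and 30.8 in the PBS libraries. Every VEGF-C library was below every PBS library. For Adam4 the log2 difference came to -1.24 ± 0.25 (SE), with an adjusted p of 0.0113, a figure that the added 4 counts make smaller for a gene so low. Adam4 lies within the span of Cox16 on the same strand, without shared exon bases, and Cox16 differed by -0.22 (adjusted p = 0.353). Adam1b, which encodes a sperm surface protein, had 5.30, 9.09, 15.7 and 26.5 normalized counts in the VEGF-C libraries, against 29.3, 36.2, 33.3 and 33.2 in the PBS libraries. The groups did not overlap, and the difference of -1.17 ± 0.37 missed the threshold (adjusted p = 0.059).

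The 2 main sheddases did not pass the test. Adam17, which releases TNF and ligands of the EGF receptor, averaged 4253 ± 401 normalized counts in VEGF-C hearts and 4089 ± 457 in PBS hearts (SD, n = 4 each), with a log2 difference of 0.06 ± 0.10 (adjusted p = 0.722). Adam10, the sheddase of Notch receptors, averaged 5148 ± 149 normalized counts in VEGF-C hearts and 4824 ± 501 in PBS hearts, with a difference of 0.10 ± 0.08 (adjusted p = 0.429). Both differences changed sign, to -0.13 and -0.09, when libraries were scaled by total reads, and relative to the median of all genes under that scaling they were 0.05 and 0.09. The highest difference in the family belonged to Adam9, or meltrin gamma, at 0.30 ± 0.12 (adjusted p = 0.109). Its difference was 0.40 without PBS replicate 1 (adjusted p = 0.0349), past the threshold, and 0.18 without PBS replicate 2 (adjusted p = 0.194). Adam19, meltrin beta, which sheds neuregulin, was next at 0.29 ± 0.11 (adjusted p = 0.105). Adam15 differed by -0.03 ± 0.11, and Adam11, Adam22 and Adam23, which lack protease activity and act at synapses, by -0.42 ± 0.20, 0.15 ± 0.17 and -0.14 ± 0.20. The sperm-protein genes Adam1a, Adam2 and Adam5 differed by -0.45 ± 0.23, -0.06 ± 0.25 and 0.27 ± 0.30, and none passed.

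In the Adamts family 3 of 17 genes passed (17.6%, against 15.7% of all genes): Adamts10 and Adamts14 fell and Adamts9 rose. Adamts10, which binds fibrillin microfibrils, had 2188, 2493, 2753 and 2647 normalized counts in the VEGF-C libraries, against 3885, 5592, 4607 and 5611 in the PBS libraries. The VEGF-C libraries formed a narrow band under the PBS libraries. VEGF-C minus PBS, Adamts10 differed by -0.95 ± 0.13 (log2, adjusted p = 0.00143). Adamts14, a procollagen N-proteinase that trims the end of procollagen before fibrils form, had 282, 236, 287 and 297 normalized counts in the VEGF-C libraries, against 454, 472, 451 and 492 in the PBS libraries. The groups were far apart relative to the spread in each. The log2 difference of Adamts14 was -0.76 ± 0.11 (SE, n = 4 each), with an adjusted p of 0.00251. The other procollagen N-proteinases did not pass: Adamts2 differed by 0.34 ± 0.19 (adjusted p = 0.235) and Adamts3 by 0.03 ± 0.16 (adjusted p = 0.927).

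Adamts3 is also the protease that cuts the VEGF-C precursor into its active form. It averaged 267 ± 42.0 normalized counts in VEGF-C hearts and 261 ± 37.3 in PBS hearts (SD, n = 4 each). Among the versican- and aggrecan-cutting enzymes, Adamts9 had 2947, 3279, 3147 and 3413 normalized counts in the VEGF-C libraries, against 2541, 2439, 2133 and 2068 in the PBS libraries. All VEGF-C libraries were above all PBS libraries. Adamts9 thus differed by 0.48 ± 0.09 on the log2 scale (adjusted p = 0.00656). Of the 15048 exon bases of Adamts9, 1381 also lie in A730049H05Rik on the opposite strand. Adamts1 and Adamts5 had differences of -0.16 ± 0.17 (adjusted p = 0.567) and -0.12 ± 0.10 (adjusted p = 0.46), and the sign of Adamts1 turned to 0.02 without PBS replicate 2.

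Adamts4 and Adamts8 showed large spreads within a group. Adamts4, an inflammation-induced aggrecanase, had 699.8, 416, 331 and 282 normalized counts in the VEGF-C libraries, against 1401, 348, 594 and 432 in the PBS libraries. PBS replicate 1 was the highest, and the groups overlapped (log2 difference -0.55 ± 0.41, adjusted p = 0.383). The difference was -0.14 without PBS replicate 1 (adjusted p = 0.785). Adamts8, which in cell culture restrains the growth of blood vessels, had 472, 353, 5521 and 348 normalized counts in the VEGF-C libraries, against 212, 392, 508 and 1519 in the PBS libraries. VEGF-C replicate 3 was far above all other libraries. The difference of 0.58 ± 0.86 (adjusted p = 0.684) became -0.38 without it. In the authors' deposited table the log2 fold change of Adamts8 was 1.35, without an adjusted p. Adamts15 differed by -0.15 ± 0.18 with all libraries and by -0.35 without PBS replicate 1, where it reached an adjusted p of 0.0499, and over all libraries left out in turn it was -0.35 to -0.05. Adamts6, Adamts7, Adamts12, Adamts16, Adamts17, Adamts19 and Adamts20 had differences between -0.37 (Adamts19) and 0.03 (Adamts16), and none passed.

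**Figure D4:**
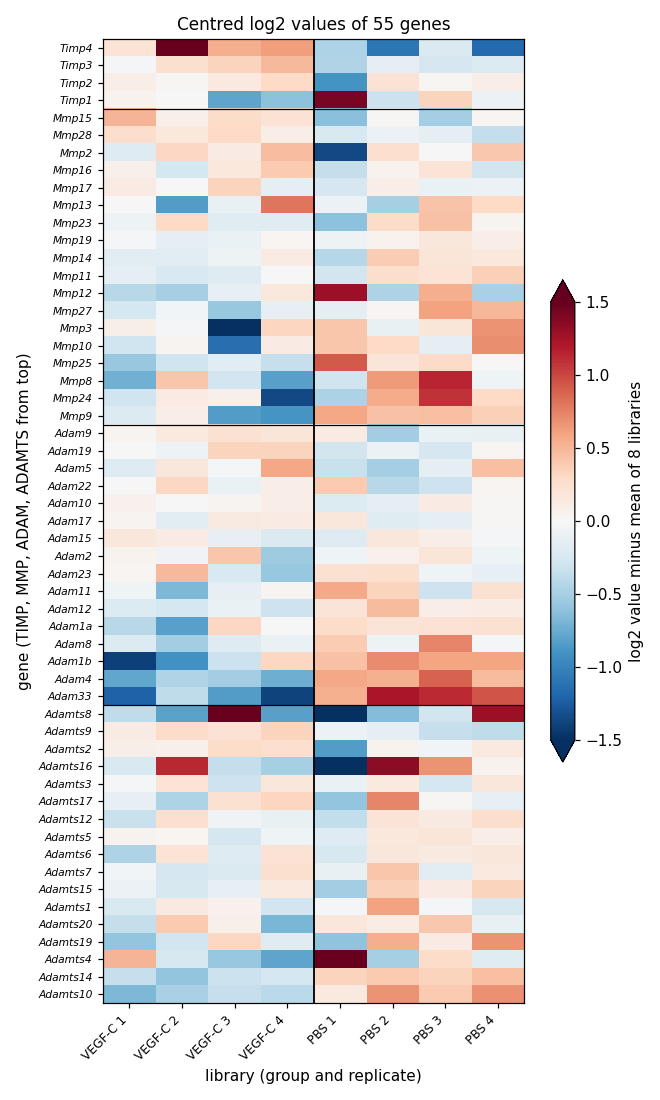
Log2 values of the 55 genes (rows: Timp, Mmp, Adam and Adamts genes from top to bottom, each sorted by its difference) in the 8 libraries (columns, VEGF-C left of the black line, PBS right), as the difference from the gene's mean over the 8 libraries. Red is above and blue below that mean, and colors end at 1.5 in both directions. PBS replicate 1 shows strong red for Timp1, Mmp12 and Adamts4 and strong blue for Mmp2, Adamts8 and Adamts16.

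The spread within groups was larger for these genes than for the typical gene. The median SD of the log2 values was 0.23 in VEGF-C libraries and 0.31 in PBS libraries over the 55 genes, against 0.18 and 0.19 over all genes. For Timp1, Mmp2, Mmp12 and Adamts4 PBS replicate 1 lay farthest from the PBS mean, which the plot of single libraries shows. The other PBS libraries also spread widely for Mmp12, from 518 to 1067 normalized counts.

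Levels were compared between genes as normalized counts per kb of exon (GENCODE M21), ranked by the mean of all 8 libraries. Timp1 ranked highest, at 7219.7 ± 2077 in VEGF-C hearts and 12562 ± 7655 in PBS hearts (SD, n = 4 each). Timp2 followed, at 7255 ± 599.9 in VEGF-C hearts and 6225 ± 1844 in PBS hearts, and then Mmp2, at 4669 ± 883 in VEGF-C hearts and 3965 ± 1674 in PBS hearts. Timp1 and Timp2 did not differ beyond their spread. Mmp3 came next, at 1886 ± 822 in VEGF-C hearts and 2592 ± 600.0 in PBS hearts, and then Mmp23, Timp3, Mmp15, Adam9 and Mmp14, whose ranges of mean ± SD overlapped in PBS hearts. Timp3 stood at 1816 ± 262 in VEGF-C hearts and 1261 ± 116 in PBS hearts, and Mmp15 at 1763 ± 228 in VEGF-C hearts and 1224 ± 285 in PBS hearts. The lowest were Adam4, at 4.93 ± 0.718 in VEGF-C hearts and 13.8 ± 2.02 in PBS hearts, and Adam1b, at 4.24 ± 2.79 in VEGF-C hearts and 9.88 ± 0.85 in PBS hearts.

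Proteins that activate or restrain these proteases were measured in 13 further genes, of which 3 rose and 1 fell (30.8% called, against 15.7% of all genes, median -0.09). This list and those after it were chosen with earlier results of these data known. Furin and Pcsk6 are proprotein convertases that cut the precursors of ADAMs and membrane-type MMPs. Furin averaged 9549 ± 474 normalized counts in VEGF-C hearts and 6776 ± 649 in PBS hearts (SD, n = 4 each), a log2 difference of 0.50 ± 0.08 (adjusted p = 0.00426). Pcsk6 averaged 5314 ± 1004 normalized counts in VEGF-C hearts and 3567 ± 394 in PBS hearts, a difference of 0.56 ± 0.14 (adjusted p = 0.0221). Bsg, or basigin, which induces MMPs in neighbouring cells, differed by 0.32 ± 0.09 (adjusted p = 0.0433). Plaur, the urokinase receptor of the plasmin system, fell to 724 ± 158 normalized counts in VEGF-C hearts, against 1022 ± 91.6 in PBS hearts (-0.52 ± 0.15, adjusted p = 0.0394).

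Of 9 partners of ADAM10 and ADAM17, such as the iRhoms and tetraspanins that escort them, 1 fell and none rose (11.1% called, against 15.7% of all genes, median -0.00099). This was Tspan15, a tetraspanin that binds ADAM10, at 668 ± 82.3 normalized counts in VEGF-C hearts and 876 ± 64.2 in PBS hearts, a difference of -0.39 ± 0.11 (adjusted p = 0.033). Of 20 genes whose proteins ADAMs shed, 1 rose and 3 fell (20% called, against 15.7% of all genes, median -0.15). Hbegf, an EGF receptor ligand that is shed to become soluble, rose to 1898 ± 219 normalized counts in VEGF-C hearts, against 1229.6 ± 139 in PBS hearts (0.62 ± 0.11, adjusted p = 0.00562). Tnf, the inflammatory cytokine released by ADAM17, averaged 104 ± 16.8 normalized counts in VEGF-C hearts and 290.5 ± 88.1 in PBS hearts, a difference of -1.41 ± 0.22 (adjusted p = 0.00375). Notch2, a receptor that ADAM10 cuts, differed by -0.28 ± 0.07 (adjusted p = 0.0306). These are transcript levels, and no shedding was measured.

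Of 17 matrix substrates 2 rose and none fell (11.8% called, against 15.7% of all genes, median 0.09). Col1a1, the main chain of type I collagen, averaged 233722 ± 19926 normalized counts in VEGF-C hearts and 144780.0 ± 17127 in PBS hearts (SD, n = 4 each), a difference of 0.69 ± 0.14 (adjusted p = 0.00926). Vwf, von Willebrand factor of endothelium and platelets, averaged 15849 ± 1683 normalized counts in VEGF-C hearts and 10266 ± 2000.3 in PBS hearts, a difference of 0.64 ± 0.14 (adjusted p = 0.0158). With the authors' factors, the summed cardiomyocyte markers were also higher in VEGF-C hearts and did not overlap. They were 3696809 to 4136933 normalized counts in VEGF-C libraries and 2717906 to 3629302 in PBS libraries. As shares of all normalized counts in each library, which is scaling by total reads, the sums of the groups overlapped. Scaling by total reads also moved the median of all genes by -0.19. Sums were not computed under upper-quartile scaling. Of these markers 7 of 8 were positive, and only Actn2 passed the test (0.61 ± 0.12, adjusted p = 0.0101), or 12.5%, against 15.7% of all genes called. The part of the cardiomyocyte marker levels in those of Timp4 and Mmp15 was not tested.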

How the data were processed

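Heart RNA was sequenced as stranded mRNA libraries, 4 per group. The authors deposited 1 table of log2 values, and the genome build was GRCm39, per the submitters' processing notes, which also name DESeq2 1.38.3, featureCounts of Subread 2.0.1, the aligner STAR 2.7.10a and the trimmer Trim Galore 0.6.10. The deposited log2 values proved to be log2(normalized count + 4) with 1 factor per library, since all values came back as whole reads within 0.01 read. The authors' deposited adjusted p-values were used only as an alternative, and 23 genes lack one. Normalized counts are those reads divided by the deposited factors. All 18835 genes with values were fitted with limma 3.58.1 (R 4.3.3) with a mean-variance trend and 6 residual degrees of freedom. P-values are two-sided and Benjamini-Hochberg adjusted over all genes, with a threshold of 0.05. Columns name a group and a replicate, and no animal.

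The members and lists were chosen with earlier results of these data known. Genes named in full passed the test, had groups that did not overlap, had the highest or lowest difference of their family, or were well-known members (all Timp genes, Mmp2, Mmp3, Mmp8, Mmp9, Mmp12, Mmp14, Adam8, Adam10, Adam17, Adamts1, Adamts4 and Adamts5). From each further list, up to 4 genes past the threshold were named. A further gene among the shed substrates is counted but not reported here. Other genes were named after their values were seen. Roles are textbook knowledge, and a planned division of ADAMs by an active-site motif was not made, since no protein sequences were used here. Alternatives were other scalings, pseudocounts, a filter, other variance models and leaving out each library.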

Additional observations from a re-analysis of the deposited data

Results flagged for a closer look

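A library lay far from the other 3 of its group, by Dixon's criterion at 95%, in 4 of 110 gene-by-group comparisons, and chance alone gives about 1 in 20. Adamts16 had 158 normalized counts in VEGF-C replicate 2, against 48.6 to 59.4 in the other VEGF-C libraries. Adamts8, an inhibitor of vessel growth in culture, had 5521 in VEGF-C replicate 3, against 348 to 472 in the other VEGF-C libraries. Timp2 had 13722 in PBS replicate 1, against 26099 to 29774 in the other PBS libraries. Adamts6 had 387 in the same PBS library, against 504 to 517 in the other PBS libraries.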

How the results depend on the processing

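Calls of 8 genes (Adam12, Adam33, Adam4, Adamts10, Adamts14, Adamts9, Mmp9 and Timp4) held under all 18 alternatives, and those of Mmp15, Mmp25, Mmp28 and Timp3 did not. Beside the cases given with the results, Mmp25 was lost with limma-voom, and Mmp25 and Mmp15 without the mean-variance trend. The 12 genes called became 13 with the authors' adjusted p, 14 with scaling by total reads (9 of them shared) and 9 to 14 when 1 library was left out. The 5 called higher became 3 with upper-quartile scaling, 2 with scaling by total reads and 3 to 5 when 1 library was left out, and the 7 called lower became 12 with scaling by total reads. Over all genes, the 2949 called became 1684 to 2906 when 1 library was left out. The 1328 called higher became 797 with upper-quartile scaling, 797 without the mean-variance trend, 243 with scaling by total reads and 591 to 1268 when 1 library was left out. The 1621 called lower became 3572 with scaling by total reads. Among the genes named in full, signs reversed for Adam10 (-0.0921) and Adam17 (-0.13) with scaling by total reads. Leaving out 1 library in turn reversed those of Adamts1 (-0.26 to 0.0207, with the highest without PBS replicate 2), Adamts8 (-0.38, without VEGF-C replicate 3, to 1.10) and Mmp2 (-0.0383, without PBS replicate 1, to 0.55). It also reversed those of Adam2, Adam15, Adam23, Adamts3, Adamts6, Adamts16 (-0.68 to 0.48), Adamts17, Mmp13 (-0.35 to 0.20) and Mmp23. With all libraries none of these genes passed the test. The causes of these changes were not tested. No paired analysis was possible because the labels pair no libraries between the groups and the table's columns name no animal. Low genes such as Adam4 and Adam1b rest on few reads per library, and with 4 libraries a group small differences were not detectable.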

Other observations

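ADAMTS-like proteins carry the matrix-binding domains of ADAMTS enzymes without the protease. Of 9 genes of this kind and their relatives, 2 rose in VEGF-C hearts and none fell (22.2% called, against 15.7% of all genes, median -0.02). Adamtsl4, a fibrillin-binding protein, averaged 5061 ± 334 normalized counts in VEGF-C hearts and 3806 ± 498 in PBS hearts (SD, n = 4 each), a log2 difference of 0.42 ± 0.10 (adjusted p = 0.0173, limma). Adamtsl2, another fibrillin-binding protein, averaged 3251 ± 606 normalized counts in VEGF-C hearts and 1999.6 ± 590.1 in PBS hearts, a difference of 0.74 ± 0.22 (adjusted p = 0.0473). Adamts10, which binds the same microfibrils, fell in the same hearts.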
